A study of Mus musculus with 4 samples.

Results

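Trav genes encode the V segments of the T cell receptor alpha chain. They were taken here as all features whose symbol starts with Trav, which gave 128 of 32285 features, 108 annotated as V genes and 20 as pseudogenes. All lie on the plus strand of chromosome 14 (GRCm38), between 52427928 and 53977678, upstream of the alpha constant gene Trac at 54220521-54224206. Their transcripts were counted as unique molecular identifiers (UMIs) in single T cells whose receptor had also been sequenced as assembled contigs, and they were compared across cells grouped by the V segment of the beta chain.

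The cells were CD4 T cells purified from the spleens of B6.H2g7 donors, a line whose strain label is B6.NOD-(D17Mit21-D17Mit10)/LtJ, at an age of 6 to 8 weeks. From the donors, 5000000 cells were transferred into each of 2 NOD.Rag1null hosts, mice with no T or B cells of their own, and live CD4+ TCRβ+ cells were sorted from the spleen on day 14. Each mouse gave a 10x 5′ expression library and a receptor library, and the labels do not say whether the donor cells were pooled. The 3 classes are therefore cells of the same 2 hosts: TRBV26 (known as Vβ3), TRBV23 (known as Vβ20) and cells with neither. All share the donor strain, the host and the transfer, and there was no untransferred group among the samples used here.

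A barcode was kept if it had 500 or more genes with a UMI, no more than 10% of its UMIs from mitochondrial genes and exactly 1 TRB contig, which left 5993 of 9996 barcodes in mouse 1 and 6332 of 9733 in mouse 2. They held 38725969 and 44796902 UMIs, with medians of 5596 and 6219.5 per cell. The classes TRBV26, TRBV23 and neither had 2084, 959 and 2950 cells in mouse 1 and 1960, 725 and 3647 in mouse 2. A clonotype was defined as cells of 1 mouse with the same TRBV, TRBJ and TRB CDR3 nucleotides, and the kept cells held 3166 and 3316 clonotypes. The libraries shared 166 barcodes, of which 58 were kept in both and 0 had the same clonotype in both. The T cell markers fitted the sort: Cd4 was detected in 84.1% and 86.9% of kept cells and Cd3e in 98.5% and 98.8%. Cd8a, which defines CD8 T cells, was at 0. The summed level of 10 macrophage markers was 53.9 and 60.0 counts per 1000000 UMIs (CPM), of 8 B cell markers 165 and 195 CPM, of 2 CD8 T cell markers 9.09 and 8.55 CPM, and of the gamma delta T cell markers 21.8 and 4.64 CPM. No doublet caller was run.

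The alpha chain is assembled by joining 1 V segment to 1 J segment, which deletes the DNA between them and leaves the unused V segments on the 5′ side in place. Both alleles can rearrange, and an allele can rearrange again to a V segment further 5′ and a J segment further 3′, so a T cell can carry transcripts of more than 1 V segment while usually showing 1 alpha chain at its surface. In C57BL/6 mice much of the locus is duplicated, and the copies carry the suffix d or n beside an original without suffix, as in Trav12d-3, Trav12n-3 and Trav12-3. A receptor contig is assembled across V, J and constant segments, while a gene count rests on short reads that must be assigned to 1 gene, so near-identical copies matter for the second and less for the first.

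The first set of sequences shows how alike the copies can be, since this decides which members could be counted. They are stretches of the coding sequence (GENCODE M21 on GRCm38, positions counted from the first coding base), with bases that differ within a set in capitals. Trav12d-3 (chr14:52929789-52930282) and Trav12n-3 (chr14:53240745-53241244) were identical over all 347 bases, and Trav12-3 (chr14:53621657-53622245) differed from them at 11, of which 10 fall in bases 51 to 230.
Trav12d-3: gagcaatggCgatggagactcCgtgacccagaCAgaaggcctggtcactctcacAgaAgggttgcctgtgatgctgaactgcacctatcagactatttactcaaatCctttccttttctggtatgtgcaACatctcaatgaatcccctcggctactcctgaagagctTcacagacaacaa
Trav12n-3: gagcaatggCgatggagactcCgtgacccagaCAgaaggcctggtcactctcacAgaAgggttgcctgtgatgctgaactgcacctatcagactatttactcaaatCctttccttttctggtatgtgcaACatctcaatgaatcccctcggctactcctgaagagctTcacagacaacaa
Trav12-3: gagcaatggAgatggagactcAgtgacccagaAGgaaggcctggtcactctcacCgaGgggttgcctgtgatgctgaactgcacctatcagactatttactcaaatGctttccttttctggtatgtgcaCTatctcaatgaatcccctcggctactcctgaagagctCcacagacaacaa

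Some pairs of copies differ by a single coding base. Trav13d-1 (chr14:52851290-52851866) and Trav13n-1 (chr14:53162399-53162910) differ by G190A alone, shown in bases 141 to 240. Trav6-3 (chr14:53428711-53430377) and Trav6d-3 (chr14:52725299-52726919) differ by A336T at the 3′ end, shown in bases 269 to 338.
Trav13d-1: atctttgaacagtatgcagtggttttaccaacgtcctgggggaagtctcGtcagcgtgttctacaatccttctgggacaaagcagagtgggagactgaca
Trav13n-1: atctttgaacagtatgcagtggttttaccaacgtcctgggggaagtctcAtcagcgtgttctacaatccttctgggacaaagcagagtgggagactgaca
Trav6-3: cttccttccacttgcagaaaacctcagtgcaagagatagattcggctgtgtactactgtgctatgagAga
Trav6d-3: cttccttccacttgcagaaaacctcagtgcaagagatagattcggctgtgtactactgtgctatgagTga

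The TRAV10 family is shown because its members were called in the comparisons of the classes and because its 3 copies differ at several places. Bases 31 to 270 are given for Trav10 (chr14:53505727-53506286), Trav10d (chr14:52810934-52811496) and Trav10n (chr14:53122114-53122610). Trav10 differs from Trav10d at 3 positions and from Trav10n at 6, and Trav10d from Trav10n at 3.
Trav10: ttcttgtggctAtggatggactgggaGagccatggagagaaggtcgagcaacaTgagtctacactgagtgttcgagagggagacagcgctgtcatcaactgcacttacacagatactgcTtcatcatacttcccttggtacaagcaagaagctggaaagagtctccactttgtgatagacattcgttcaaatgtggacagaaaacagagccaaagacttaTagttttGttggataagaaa
Trav10d: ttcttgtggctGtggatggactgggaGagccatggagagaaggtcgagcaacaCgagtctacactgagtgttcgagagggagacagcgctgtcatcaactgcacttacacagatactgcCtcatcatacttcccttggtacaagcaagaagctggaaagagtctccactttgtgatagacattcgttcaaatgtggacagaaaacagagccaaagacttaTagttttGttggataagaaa
Trav10n: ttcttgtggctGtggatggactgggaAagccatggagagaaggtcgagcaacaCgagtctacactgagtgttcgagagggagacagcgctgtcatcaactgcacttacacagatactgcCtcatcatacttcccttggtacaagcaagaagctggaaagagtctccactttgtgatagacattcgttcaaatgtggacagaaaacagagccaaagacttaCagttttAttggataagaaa

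Of the 128 members, 111 had at least 1 UMI in kept cells and 17 had none. In all, 91327 Trav UMIs were counted. The TRA contigs of kept cells named 88 members, and all 88 names matched a feature symbol. The other 40 were in no contig, and 26 of these still had UMIs. The 6 members with the most UMIs held 28.1% of the total: Trav21-dv12 had 6509 UMIs, Trav13-1 4938, Trav10 3868, Trav6-7-dv9 3580, Trav5-4 3415 and Trav12-2 3327. Single clones weighed on some of these totals, since 49.5% of the Trav21-dv12 UMIs of mouse 1 and 89.7% of its 1568 Trav15-1-dv6-1 UMIs came from 1 clonotype each. The pseudogenes were in 0 contigs, yet 10 of 20 had UMIs, 1052 in all or 1.15% of Trav UMIs, and Trav8-2 alone had 674.

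Members without coding sequence of their own were almost absent from the counts although they were common in contigs. Among the coding sequences (the longest transcript for pseudogenes), 34 members formed 17 identical pairs. In 15 pairs the contigs carried only 1 of the names, and in the other 2 neither name. These 34 genes had 2504 contigs in kept cells and 128 UMIs. Trav6d-6 had 396 contigs and 2 UMIs, Trav4n-4 had 328 contigs and 5 UMIs, and Trav12n-2 had 324 contigs and 5 UMIs. Trav12d-3, shown above, had 86 contigs and 0 UMIs, and its twin Trav12n-3 had 0 contigs and 25 UMIs. The split of both contigs and UMIs within an identical pair is uncertain, because no read within the compared sequence can tell the copies apart. The 5′ untranslated parts were not compared.

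To describe this for all members, stretches of 90 coding bases that occur in no transcript of another gene, Trav or not, were counted. The length of 90 bases was chosen here, the read length not being given in the sources used here, and the sets were formed after the counts had been seen. None was found in 41 members, 1 to 3 in 4 members and more in 83 members, called readable below. In cells with exactly 1 TRA contig, a UMI of the contig's own V gene was found in 1.09% and 1.47% of cells (mice 1 and 2) for members with no such stretch, in 8.67% and 11.6% for those with 1 to 3, and in 96.6% and 97.4% for readable members. Among V genes with at least 30 such cells in both mice together, the 50 readable ones had a median of 98.8% and 47 of them were over 90%, while the 14 with no stretch were between 0% and 3.70%.

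The 5 V genes with the lowest detection all came from the duplicated d and n copies. Trav12d-3 was found in 0 of 66 cells, which allows a share of up to 4.55% (3 counts of the total, the limit given for a count of 0), and Trav7n-5 in 0 of 86, which allows up to 3.49%. Trav6d-6 was found in 0.621% of 322 cells, Trav6n-7 in 0.651% of 768 and Trav7d-2 in 0.694% of 288. For these V genes the transcript count carried almost no record of the chain that the contig showed. Intermediate values were seen for a few: Trav6-3, whose copy differs at the 3′ end, was found in 61.1% of 36 cells, Trav9n-4 in 63.6% of 209 and Trav10d in 75.7% of 107. At the other end, Trav13d-1 and Trav13n-1, whose coding sequences differ by 1 base, were found in 100% of 60 and 96.9% of 129 cells. Whether that base told them apart was not tested. Trav10 was found in 98.7% of 477 cells, with a mean of 6.53 UMIs, and Trav12-3 in 97.6% of 42.

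UMIs of a Trav gene in cells whose contigs name other V families only give a level to set beside these shares. It was 6.59% of cells for Trav3-3, 2.88% for Trav9-4, 2.56% for Trav13-2 and 2.40% for Trav13-1. A single clonotype could set such a value: for Trav15-1-dv6-1 it was 2.33%, with 210 of the 277 cells from 1 clonotype, and 0.575% without that clonotype. For Trav3-3 it was 5.93% without the clonotype that held most of these cells. It was 0.657% for Trav1. Free RNA and transcripts of a second segment are not told apart by this measure.

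The loss fell unevenly on the copies of the locus. The 55 originals, of which 2 had no stretch of their own, made up 57.0% and 50.6% of TRA contigs in mice 1 and 2 and 82.7% and 78.7% of Trav UMIs. The 34 n copies, 19 of them with no stretch of their own, made up 29.8% and 35.9% of contigs and 9.16% and 10.6% of UMIs. The 39 d copies, 20 of them with none, made up 13.2% and 13.5% of contigs and 8.17% and 10.7% of UMIs. By contigs the n copies were thus above the d copies in both mice, while by UMIs the d and n copies were close. The order by contigs cannot be read apart from the naming of identical pairs. Where an identical pair of a d and an n copy had contigs, they carried the n name, except for Trav12d-3 with 86. For example, Trav12n-2 had 324 contigs and its twin Trav12d-2 had 0.

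Where a cell had a leading Trav gene, meaning the gene with the most UMIs, at least 2 (a tie went to the gene first in the feature list), that gene was usually the one in its contig. Of cells with 1 TRA contig, 74.1% and 67.6% had a leading gene. It was the contig's V gene in 82.4% (3071 of 3728 cells, exact 95% interval 81.1 to 83.6) in mouse 1 and 85.0% (3125 of 3678) in mouse 2, with a mean of 83.7% ± 1.83 (SD, n = 2 mice). Over cells whose contig named a readable gene the shares were 92.0% and 94.5%, and over cells whose contig named a gene with no stretch of its own they were 0% and 1.23%. By class, the shares among readable genes were 95.0%, 95.9% and 89.0% for TRBV26, TRBV23 and neither in mouse 1 and 94.0%, 95.3% and 94.7% in mouse 2. The order of the classes differed between the mice, and the difference was not tested. Of cells with 0 TRA contigs, 25.0% and 24.2% had a leading Trav gene.

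The main question was which Trav segments were more or less abundant in cells of the 2 beta chain classes. Here 1 cell was drawn per clonotype, so that a large clone counted once, and UMIs were summed per mouse and class and fitted over all genes with edgeR's quasi-likelihood test with the mouse as a block (adjusted p by Benjamini-Hochberg, threshold 0.05). Of the 128 members, 69 passed the filter on low counts, 67 of them readable and 0 of the 41 with no stretch of their own, so the transcripts say nothing of those 41. Both contrasts against the class neither share its sums and are not independent.

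In TRBV26 cells, Trav3-3, Trav10, Trav10n, Trav7-3, Trav7-4 and Trav7-6 were among the members that were higher than in cells with neither, and Trav16n, Trav14-3, Trav14d-3-dv8 and Trav9-1 among those that were lower. None of these higher members stayed called with the spread estimated over the Trav genes alone (below), nor did Trav9-1. Trav16n, Trav14-3 and Trav14d-3-dv8 did. Of the 69 tested members 38 passed the test, 24 higher and 14 lower. Of all tested genes 11.3% were called higher and 12.7% lower. In this fit, though not with the spread of the Trav genes alone (below), the members' share lies above that of genes at large. Their median change was 0.15 on the log2 scale and their median absolute change 0.69, against 0.18 for all 11978 tested genes. The sign was the same in both mice for 55 of the 69, and for 8722 of all 11978.

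Levels below are UMIs per 1000000 after edgeR's scaling factors. Trav3-3 stood at 55.7 and 57.3 CPM in TRBV26 cells of mice 1 and 2, at 37.2 and 40.4 CPM in TRBV23 cells and at 28.1 and 24.4 CPM in cells with neither, so the 3 classes did not overlap. It was higher in TRBV26 cells than in cells with neither by 1.12 on the log2 scale (SE 0.09, edgeR adjusted p = 1.22e-07). Trav10 stood at 62.5 and 54.3, 43.3 and 52.7, and 29.1 and 31.0 CPM in the same order, a log2 difference of 0.95 (SE 0.10) between TRBV26 and neither. Both mice were above both sums of the class neither for each of these genes. Of the TRAV7 family, Trav7-6 rose by 1.01, Trav7-3 by 0.96 and Trav7-4 by 0.95. The copy Trav10n rose by 0.93, Trav13-1 by 0.69 and Trav13n-1 by 0.68.

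Among the members that were lower, Trav16n had the largest log2 difference of those that reached 20 CPM in a class, with 5.42 and 6.52 CPM in TRBV26 cells, 5.93 and 9.36 CPM in TRBV23 cells and 23.2 and 19.0 CPM in cells with neither. It fell by 1.79 on the log2 scale (SE 0.18, edgeR adjusted p = 1.42e-06) in TRBV26 cells. Trav16, under that limit, was at 2.53 and 4.28 CPM in TRBV26 cells and 11.9 and 17.0 CPM in cells with neither, a log2 difference of -2.09. Trav14-3 fell by 1.42 (SE 0.28), but unevenly, by 2.75 in mouse 1 and 0.60 in mouse 2. Trav14d-3-dv8 fell by 1.28, Trav14n-3 by 1.16, Trav13-2 by 1.04, Trav9-1 by 0.91, Trav21-dv12 by 0.63 and Trav4-3 by 0.60. The last fell by 1.32 in mouse 1 and by 0.07 in mouse 2. Direction did not follow the family name throughout, since Trav13-1 and Trav13n-1 were higher in TRBV26 cells while Trav13-2 was lower.

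In TRBV23 cells, 28 members passed the test against cells with neither, 19 higher and 9 lower, beside 8.8% and 9.37% of all tested genes. The median log2 change of the 69 members was 0.31 and their median absolute change 0.59, against 0.19 for all tested genes, and the sign was the same in both mice for 43 of the 69, a smaller share than the 7967 of all 11978. Trav7d-3 stood at 28.4 and 29.0 CPM in TRBV23 cells, 19.6 and 14.3 CPM in TRBV26 cells and 5.29 and 7.25 CPM in cells with neither, with no overlap of the classes. It was higher by 2.14 on the log2 scale (SE 0.20, edgeR adjusted p = 6.51e-07). Trav6-7-dv9 rose by 1.16, from very different values in the mice (0.31 and 1.96). Trav8n-2 rose by 1.15, Trav5-1 by 1.02, Trav13-4-dv7 by 1.00, Trav13-1 by 0.98, Trav9-4 by 0.90 and Trav14-1 by 0.72. Trav16n fell by 1.47, Trav13-2 by 0.85 and Trav14d-3-dv8 by 0.82. The last 2 fell unevenly, by 1.49 and 0.34 and by 0.08 and 1.59 in mice 1 and 2.

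Between the TRBV26 and TRBV23 classes 6 members passed the test, 3 higher and 3 lower in TRBV26 cells, where 0.025% and 0.1% of all tested genes were called. In all, 15 genes were called in this contrast. Trav8n-2 stood at 5.54 and 7.64 CPM in TRBV26 cells and at 18.1 and 30.4 CPM in TRBV23 cells, and the cells with neither lay between at 10.3 and 11.4 CPM. It was lower in TRBV26 cells by a log2 difference of -1.86 (SE 0.19, edgeR adjusted p = 0.000129). Trav13n-1 was higher in TRBV26 cells by 1.25 (adjusted p = 0.00546) and Trav7-4 by 1.16 (adjusted p = 0.00551). The other 3 called, outside the naming rule and given after their values were seen, were Trav7-1 at 1.59, Trav12-3 at -1.18 and Trav3-1 at -1.11.

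These calls depended on how the spread was set. For each tested member, the mean number of its UMIs was taken over the drawn cells that hold it. These means had a median of 4.77 over the members and lay between 1.42 and 9.91, and a median of 109 cells lay behind a member. The biological coefficient of variation was 0.354 over Trav genes and 0.0443 over all genes, and the fit pulls each gene towards the latter. With the spread estimated over the Trav genes alone, 10 members were called between TRBV26 and neither, 4 between TRBV23 and neither and 0 between TRBV26 and TRBV23. In that last contrast 13 had an unadjusted p under 0.05 and DESeq2 called 2. With the same Trav spread, 2835 of all 11978 tested genes were called between TRBV26 and neither and 2146 between TRBV23 and neither. The members' share, at 10 and 4 of 69, then lay below that of genes at large. The 10 were Trav1, Trav7-1, Trav7d-3 and Trav13d-1 (higher) and Trav14d-3-dv8, Trav16n, Trav12-3, Trav16, Trav14-3 and Trav17 (lower). The 4 were Trav1, Trav7d-3 and Trav7n-4 (higher) and Trav16n (lower). Trav1, whose product is known from mucosal-associated invariant T cells, stood at 13.6 and 17.6 CPM in TRBV26 cells, 18.8 and 16.7 CPM in TRBV23 cells and 6.75 and 5.66 CPM in cells with neither.

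**Figure D1:**
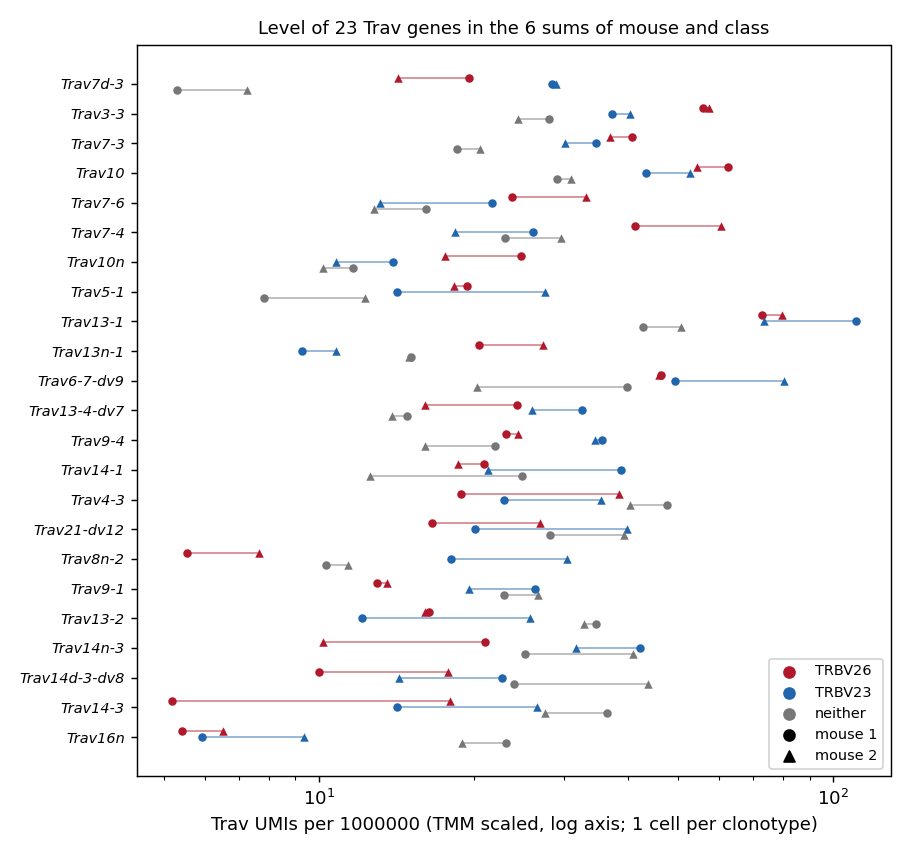
Level in scaled UMIs per 1000000 (log axis) of the Trav genes named from the contrasts, in sums of 1 cell per clonotype; colours are the classes of TRB V segment and each point is 1 mouse. Trav16n lies between 5.42 and 9.36 CPM in both named classes and at 23.2 and 19.0 CPM in cells with neither.

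The contigs, which come from a separate library of the same cells, gave the same direction for most readable genes. For TRBV26 against neither, the log2 change in UMIs and the log2 ratio of contig shares had the same sign for 57 of 62 readable genes with at least 10 cells, and for 36 of 36 called ones (Pearson's r across genes 0.946). For TRBV23 against neither the sign was the same for 50 of 59 genes and 26 of 26 called (r 0.873), and for TRBV26 against TRBV23 for 47 of 57 and 6 of 6 (r 0.876). Both measures rest on the same cells, and genes are not independent replicates, so the coefficients are descriptions.

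**Figure D2:**
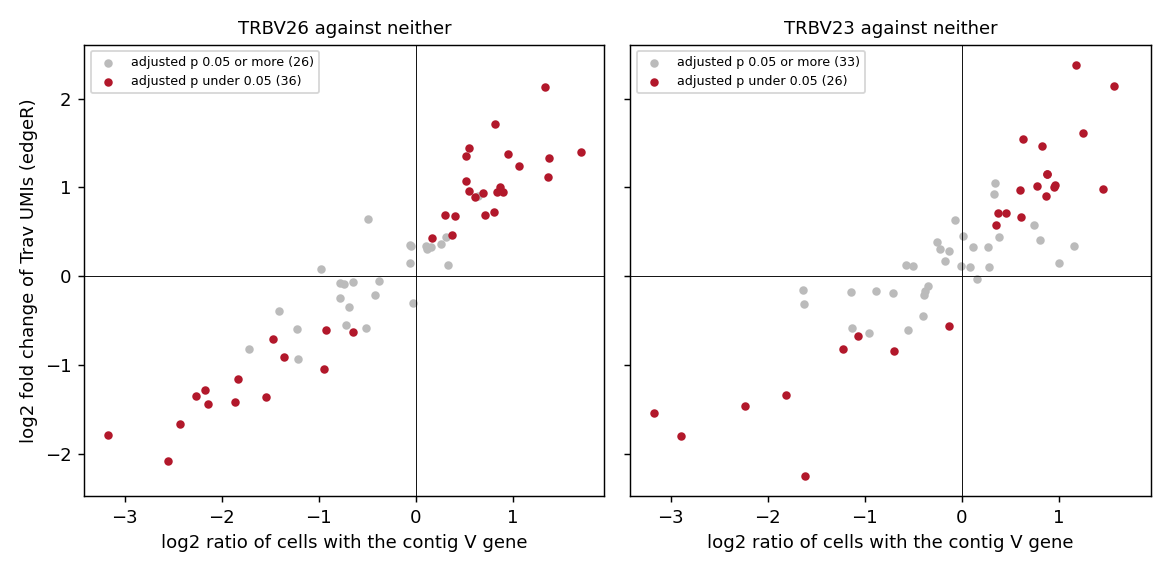
Log2 change in Trav UMIs between classes (y axis) against the log2 ratio of the shares of cells with a TRA contig of the same gene (x axis), for readable genes with at least 10 cells, 1 point per gene and 1 panel for each contrast against the class neither, which they share. For TRBV26 against neither 57 of 62 genes have the same sign on both axes.

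Contigs also cover the members that the counts could not show. Shares are of drawn cells with a TRA contig, 1406, 619 and 1043 for TRBV26, TRBV23 and neither in mouse 1 and 1395, 493 and 1335 in mouse 2. TRAV7 genes were in 24.5%, 15.5% and 14.0% of cells in mouse 1 and in 23.9%, 16.6% and 15.9% in mouse 2, and TRAV10 genes in 10.6%, 7.11% and 5.56% and in 8.75%, 8.11% and 5.09%. TRAV14 genes were in 7.47%, 12.4% and 13.1% and in 6.88%, 11.4% and 15.0%. TRAV16 genes were in 0.640%, 0.646% and 4.89% of cells in mouse 1 and in 1.58%, 1.22% and 6.29% in mouse 2. For TRBV26 against neither, the exact Clopper-Pearson 95% intervals were apart in both mice for the higher TRAV7 and TRAV10 families and the lower TRAV9, TRAV12, TRAV14 and TRAV16 families. For TRBV23 against neither they were apart in both mice for TRAV16 alone. Such intervals cover counting error only, and the shares were not tested over the mice.

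Among members that could hardly be read from UMIs, TRAV7D-2 was in 4.48%, 1.94% and 1.82% of cells with a contig in mouse 1 (TRBV26, TRBV23, neither) and in 4.09%, 3.45% and 2.77% in mouse 2. TRAV5N-4 was in 3.13%, 2.10% and 1.63% and in 2.22%, 1.22% and 1.27%. TRAV12D-3 was in 0.427%, 0.808% and 1.73% and in 0.430%, 0.811% and 1.35%. TRAV7D-2 and TRAV5N-4 were thus highest in TRBV26 cells in both mice, and TRAV12D-3 was highest in cells with neither.

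The summed Trav level was higher in both beta chain classes than in cells with neither once large clones no longer counted more than once. Over all kept cells it was 1117, 1239 and 1108 CPM in mouse 1 (TRBV26, TRBV23, neither) and 1182, 1238 and 965 CPM in mouse 2, that is 1150 ± 46.2, 1239 ± 0.544 and 1036 ± 101 CPM (SD, n = 2). In mouse 1 the classes TRBV26 and neither were close. With 1 cell per clonotype the levels were 1118, 1206 and 996 CPM and 1139, 1247 and 1009 CPM, with no overlap between neither and the other classes. With 1 cell per clonotype and a single, readable contig they were 1462, 1437 and 1210 CPM and 1441, 1541 and 1233 CPM. In those same cells the constant gene Trac stood at 229, 203 and 183 CPM and 233, 227 and 167 CPM. Per 100 Trac UMIs there were 637, 707 and 663 Trav UMIs in mouse 1 and 618, 680 and 739 in mouse 2, and cells with neither did not keep the lowest place on that scale.

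Other genes of the receptor were also higher in both beta chain classes. Trac was higher by 0.37 on the log2 scale (SE 0.06, edgeR adjusted p = 0.000165) in TRBV26 cells and by 0.34 (SE 0.06, edgeR adjusted p = 0.000865) in TRBV23 cells than in cells with neither. Of 13 genes listed for the receptor complex, 9 were tested, and the shares of all tested genes called higher were 11.3% for TRBV26 and 8.8% for TRBV23 against neither. In TRBV26 cells 8 were higher, with Trbc1, a beta constant gene, at 0.88 and Cd4, the coreceptor, at 0.65. In TRBV23 cells 7 were higher, with Cd4 at 0.70 and Cd247, the zeta chain, at 0.65. The other tested members were not called in these contrasts, and none was lower at an unadjusted p under 0.05 or by DESeq2. Between TRBV26 and TRBV23, 0 of the 9 were called by edgeR or DESeq2, and 2 had an unadjusted p under 0.05. Of 14 genes of V(D)J recombination and DNA end joining, 11 were tested. In TRBV26 cells 2 were higher, Xrcc4 and Polm, and 1 was lower, Hmgb2, a chromatin protein that is high in dividing cells. In TRBV23 cells Hmgb1 and Dclre1c were higher and Hmgb2 was lower. Such counts are near the shares of all tested genes called and are no result about the recombination list. Between TRBV26 and TRBV23, 0 of the 11 were called by edgeR, with 1 at an unadjusted p under 0.05, and DESeq2 called 0 in all 3 contrasts. Beside these, the summed B cell markers were lower in the drawn cells of both classes, at 104 and 142 CPM in TRBV26 and 93.7 and 127 CPM in TRBV23 against 331 and 340 CPM in neither, with 3 of 4 tested markers lower (Ighm, Cd79b and Ighd), while Cd22, not called, had log2 differences of 0.71 in TRBV26 and 0.70 in TRBV23 cells. The macrophage markers were at 61.3 and 39.1, 56.0 and 67.4, and 28.5 and 27.4 CPM, with 2 of 6 tested markers higher in TRBV26 cells (Hmox1 and Cd68) and 1 in TRBV23 cells (Cd68). Their part in the Trav differences was not tested.

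A second Trav segment was defined, in cells with exactly 1 TRA contig, as a gene of another V family than the contig's with at least 2 UMIs. Over all such cells its share was 23.9%, 25.7% and 34.3% in mouse 1 (TRBV26, TRBV23, neither) and 29.1%, 27.3% and 24.3% in mouse 2. The means were 26.5% ± 3.67, 26.5% ± 1.14 and 29.3% ± 7.06 (SD, n = 2). Cells with neither were thus the highest class in mouse 1 and the lowest in mouse 2. With 1 cell per clonotype the shares were 26.6%, 26.2% and 24.0% in mouse 1 and 28.7%, 30.3% and 30.1% in mouse 2, and all intervals between classes of a mouse overlapped.

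Because depth differed between cells, each cell was also thinned to 3000 UMIs. Shallower cells were left out. Of the cells with 1 TRA contig (TRBV26, TRBV23, neither), 1579 of 1752, 700 of 766 and 2294 of 2510 remained in mouse 1. In mouse 2, 1577 of 1656, 584 of 611 and 3016 of 3170 remained. The thinned shares were 11.6%, 13.3% and 19.8% in mouse 1 and 13.5%, 12.5% and 10.5% in mouse 2, with the same reversal between the mice. With 1 cell per clonotype as well they were 13.7%, 13.9% and 11.0% and 13.2%, 14.8% and 11.2%, with overlapping intervals in each mouse. TRBV26 and TRBV23 cells thus lay above cells with neither in both mice at this depth with clones counted once, and the difference was not tested.

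**Figure D3:**
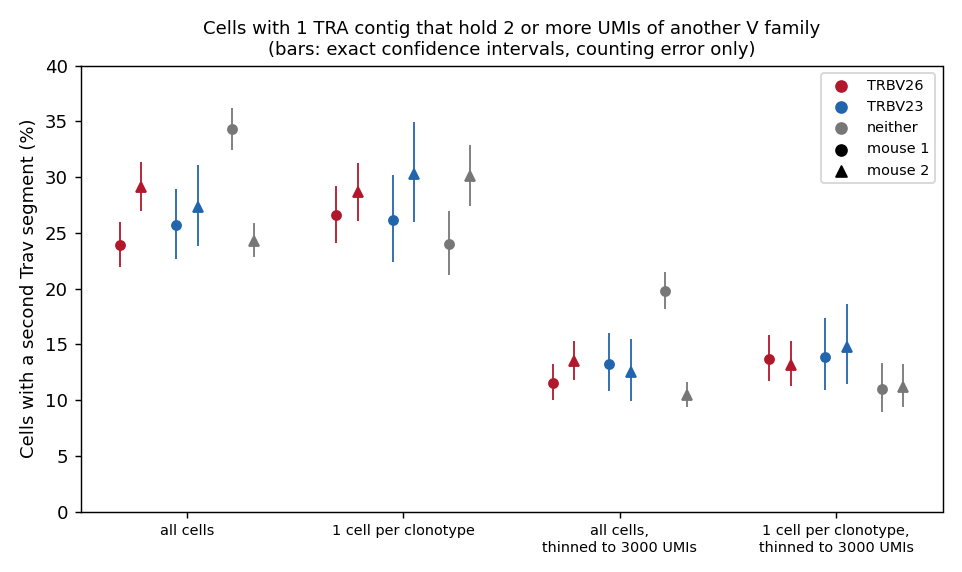
Share of cells with 1 TRA contig that hold at least 2 UMIs of a Trav gene of another V family (y axis, %), by class and mouse, over all cells and with 1 cell per clonotype, before and after thinning to 3000 UMIs; bars are exact 95% Clopper-Pearson intervals. Cells with neither are highest in mouse 1 (34.3%) and lowest in mouse 2 (24.3%) when all cells are counted.

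Trav3-3 and a pseudogene were among the genes most often seen as second segments. Over 1469 drawn cells of both mice with a second segment, 69 genes appeared. Trav3-3 was the most frequent, in 154 or 10.5% of them. It made up 0.962% of the TRA contigs of all kept cells, where a large clone counts many times. With 1 cell per clonotype, a TRAV3-3 contig was in 2.00%, 0.992% and 0.779% of cells with a contig (TRBV26, TRBV23, neither, means of the mice). Trav12-2 followed with 62, Trav13-1 with 57, Trav6-3 with 54 and the pseudogene Trav8-2 with 50. Pseudogenes, which give no productive chain, were in 94 or 6.40% of these cells. The second segment lay 5′ of the contig's segment in 40.4% of cells in mouse 1 and 41.3% in mouse 2. It was the next gene on the 5′ side in 6.79% and 4.59% and the next gene on the 3′ side in 1.51% and 1.49%.

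Large clones were used to ask whether a second segment was shared by the cells of a clone. In 206 clonotypes at least 5 cells had the clonotype's most common TRA V segment as their 1 TRA contig, and in 110 of them (53.4%) at least 50% of these cells had 1 or more UMIs of the same gene of another V family. By class these were 22 of 46 TRBV26 clonotypes, 12 of 24 TRBV23 clonotypes and 76 of 136 with neither. In these 110 clonotypes the shared segment was found in a median of 77.9% of cells at a median of 1.40 UMIs, beside 6.78 UMIs of the contig's own gene. In the other clonotypes the most frequent segment reached a median of 14.3% of cells and at most 44.4%. The shared segments came from 47 genes, with Trav3-3 in 12 clonotypes, and 6 were pseudogenes. In 25 of the 110 the second segment had more UMIs than the contig's own gene, and in 2 of these 25 the own gene was readable.

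**Figure D4:**
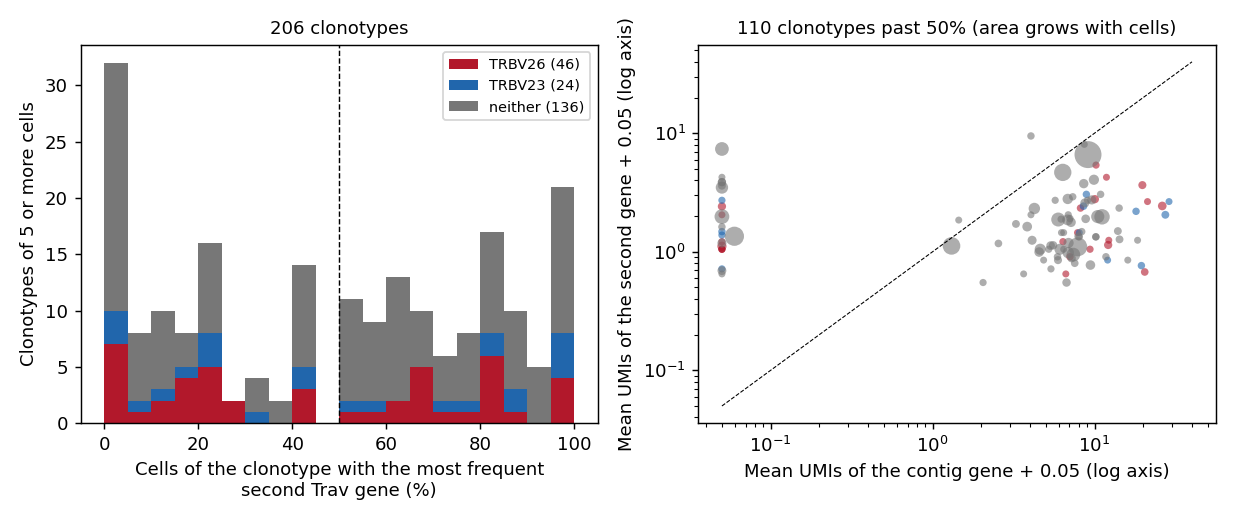
Left, number of clonotypes of 5 or more cells (y axis) by the share of their cells with the most frequent Trav gene of another V family (x axis, %), stacked by class, with a dashed line at 50%. Right, mean UMIs of that gene against mean UMIs of the contig's gene (log axes, 0.05 added, dashed line at equality) for the 110 clonotypes at or above 50%; no other clonotype is above 44.4%.

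Both cases occurred among the largest clones. In mouse 1, a TRBV31 clonotype of 213 cells with a TRAV21-DV12 to TRAJ48 contig held Trav15-1-dv6-1 in 98.6% of its cells at 6.55 UMIs, beside 9.07 UMIs of Trav21-dv12. In all cells with contigs of other V families only, this clonotype left out, the gene was found in 0.575%. Another TRBV31 clonotype of 216 cells, with TRAV21-DV12 joined to TRAJ56, had no second segment above 4.17% of cells. In mouse 2, a TRBV14 clonotype of 82 cells with TRAV9-4 and TRAJ27 held Trav3-3 in 97.6% of cells. In a clone of 48 cells of mouse 1 with TRAV7D-2 and TRAJ42, Trav13-2 was in 100% of cells at 7.31 UMIs and the contig's own gene in 0%. The largest of these clonotypes, 363 cells of mouse 2 with TRAV6N-7 and TRAJ27, had no second segment above 1.65% and its own gene in 1.10% of cells, so that its alpha chain was nearly absent from the Trav counts (the gene has no stretch of its own). The alpha CDR3 of 3 clones that share a second segment are shown to identify the chain that was assembled, with no capitals since nothing within them is compared.
TRAV21-DV12 to TRAJ48 with Trav15-1-dv6-1: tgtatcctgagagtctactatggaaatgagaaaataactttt
TRAV9-4 to TRAJ27 with Trav3-3: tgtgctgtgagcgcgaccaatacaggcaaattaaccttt
TRAV6N-7 to TRAJ13 with Trav8n-2: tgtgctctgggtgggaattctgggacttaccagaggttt

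Cells in which 2 TRA contigs were assembled served as a comparison in which both chains are known. They were 769 of 5993 kept cells in mouse 1 and 701 of 6332 in mouse 2. By class they were 13.1%, 17.1% and 11.3% in mouse 1 and 13.5%, 13.0% and 9.40% in mouse 2. Where both V genes were readable, UMIs of both were found in 89.4% (313 of 350 cells) and 95.3% (345 of 362). Among all cells with 2 TRA contigs and a leading Trav gene, readable or not, that gene was of either contig in 98.8% (648 of 656) and 98.4% (604 of 614). In the 350 and 362 cells with both V genes readable, the V gene of the contig with more UMIs had a mean of 9.29 and 10.4 Trav UMIs. The other had 5.13 and 6.40.

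Trav11 and Trav1 were looked at because their rearrangements to Traj18 and Traj33 give the invariant chains of natural killer T cells and of mucosal-associated invariant T cells. Trav11 had 46 contigs and 2 UMIs in kept cells. Of the cells with a TRAV11 contig, 6 had no other TRA contig, and no Trav11 UMI was found in any of them, which allows a share of up to 50% (3 counts of 6). Its transcript holds 1 stretch of its own, while the pseudogene Trav11n had 66 UMIs and 0 contigs. TRAV11 was joined to TRAJ18 in 1 cell of mouse 1 and 3 of mouse 2. The 4 CDR3 are shown because they share the V and J ends and differ only at the junction, in capitals.
Mouse 1, TRAV11 to TRAJ18: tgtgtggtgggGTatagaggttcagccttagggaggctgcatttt
Mouse 2, TRAV11 to TRAJ18: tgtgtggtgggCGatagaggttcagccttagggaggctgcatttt
Mouse 2, TRAV11 to TRAJ18: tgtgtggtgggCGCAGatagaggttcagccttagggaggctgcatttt
Mouse 2, TRAV11 to TRAJ18: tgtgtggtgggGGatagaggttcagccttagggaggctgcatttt

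Zbtb16, the transcription factor of these innate-like lineages, had 4 UMIs in the 3 cells of mouse 2 and 14 in the 6315 kept cells without a TRAV11 contig, and 0 in the 1 cell of mouse 1. Trav1 had 71 contigs, and its transcript was found in 100% of 41 cells with TRAV1 as their only alpha contig, at a mean of 10.1 UMIs. TRAV1 was joined to TRAJ33 in 1 cell of each mouse, so Trav1 UMIs in these cells came almost wholly from other rearrangements. The summed level of 6 natural killer T cell markers was 487 and 556 CPM in kept cells, and that of the 5 mucosal-associated invariant T cell markers among the features was 182 and 277 CPM. Those lists share Zbtb16 and hold Il2rb and Il7r, which other T cells also express.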

How the data were processed

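Expression and receptor libraries of 2 mice were used. The deposited matrices hold raw UMI counts per gene and barcode, and the contig tables hold the number of UMIs per assembled contig as the authors deposited them. Cell Ranger 7.0.1 and the builds mm10 and GRCm38 are named in the submitters' processing notes; the read length, the transcript annotation and the handling of reads that match several genes are not given in the sources used here. Transcript sequences and coordinates were taken from GENCODE M21 on GRCm38.

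Kept cells, classes and clonotypes were defined as stated above. The classes are cells of the same hosts, so they are paired by mouse and the mouse was a block. UMIs of 1 cell per clonotype (seeded draw) were summed per mouse and class, filtered with filterByExpr, scaled by TMM and tested with edgeR 4.0.16 in R 4.3.3. Trbv, Trbd and Trbj genes, which define the classes, were left out. The prior had 14.4 degrees of freedom beside 2 residual ones, and 7.59 when estimated over Trav genes alone. On simulated data (11810 genes) the fit recovered 99% of 2-fold and 100% of 3-fold changes between TRBV26 and neither, with 12 false calls. That simulation drew counts per sum and so does not hold several UMIs of a gene coming from 1 cell. Its spread was set below that of the Trav genes (biological coefficient of variation 0.354), and it held no mouse effect. Its shares therefore do not carry over to the Trav genes. DESeq2 1.42.0, other draws, filters and depths were tried as alternatives. Intervals are exact 95% Clopper-Pearson intervals and cover counting error only. The labels name separate hosts but not separate donors for each. With the mouse as a block, p-values rest on how the class differences vary between these 2 mice, with that spread pulled towards the spread of all genes.

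Named genes are, for each contrast, up to 8 per direction with the largest change among called Trav genes whose 2 mice moved the same way and that reached 20 CPM in the mean of a class, plus the 6 with most UMIs, the 5 most frequent second segments, the 5 V genes with the lowest own detection, Trav11 and Trav1. The members and lists were chosen with earlier results of these data known.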

Additional observations from a re-analysis of the deposited data

Results flagged for a closer look

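Barcodes outside the comparisons also held Trav transcripts. A gene with at least 2 Trav UMIs was found in 71.7% of the 2901 barcodes of mouse 1 with no receptor contig and in 72.3% of the 2405 of mouse 2, far above the 3 counts of the total that a count of 0 allows. Those barcodes had a median of 6851 and 8352 UMIs. Among barcodes with 2 TRB contigs the shares were 83.3% of 708 in mouse 1 and 82.1% of 702 in mouse 2, against 74.0% and 68.5% in kept cells.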

How the results depend on the processing

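Of the 30 named gene results, 0 reversed in 270 tested alternatives and 53 fell below the threshold, 25 with the spread of the Trav genes alone, 11 with DESeq2 and 9 without the block. The alternatives reuse many of the same cells, and the genes were named for being called with the same direction in both mice. The lack of reversals was therefore largely set beforehand. Leaving out a mouse gave 60 more values with no test, whose direction the naming rule had fixed. Fits with the spread of the Trav genes alone, thinning with 1 cell per clonotype and readable contigs alone were chosen after seeing the data. The number of called members for TRBV26 against neither was 38, and 20 with DESeq2 and 10 with the Trav spread; for TRBV23 against neither it was 28, and 12 and 4. Without the replicate block for the mouse, edgeR gave 15 for TRBV23 against neither. It gave 0 for TRBV26 against TRBV23, where 25 had an unadjusted p under 0.05. DESeq2, which was run with the block only, called 2 for TRBV26 against TRBV23. The 6 members called between TRBV26 and TRBV23 became 2 over all kept cells, 3 with a second draw, 27 without the low-count filter, 17 with clonotypes split by TRA, 14 with at least 1000 genes and at most 5% mitochondrial UMIs, 2 with DESeq2 and 0 with the Trav spread (13 at an unadjusted p under 0.05). No count could be made without a replicate, since 1 mouse leaves no residual degrees of freedom.

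The share of cells whose leading gene was that of their contig was 83.7%, and 75.2% at 1 UMI, 87.6% at 3 UMIs, 86.6% after thinning and 93.3% for readable contigs; leaving out a mouse gave 82.4% to 85.0%. Second segments for TRBV26, TRBV23 and neither were at 52.6%, 55.4% and 53.1% with 1 UMI, at 14.8%, 14.7% and 18.5% with 3 UMIs, at 12.5%, 12.9% and 15.2% after thinning, and at 13.4%, 14.3% and 11.1% with 1 cell per clonotype as well. For TRBV23 they were at 28.2% with 1 cell per clonotype and 29.1% with any other Trav gene. Leaving out a mouse gave 23.9% to 29.1%, 25.7% to 27.3% and 24.3% to 34.3%. Summed levels for the 3 classes were 1451, 1489 and 1222 CPM with a single readable contig and 1 cell per clonotype. With exactly 1 TRA contig they were 1065 CPM for TRBV26 and 1117 CPM for TRBV23, and for TRBV23 1227 CPM with 1 cell per clonotype and 1245 CPM with stricter cell filters. Leaving out a mouse gave 1117 to 1182, 1238 to 1239 and 965 to 1108 CPM. Where values moved, the cause was not tested. Shares of cells with a second segment rest on a minimum number of UMIs, so they cannot be read apart from depth.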
